A study of Homo sapiens with 9 samples.

Results

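The sites described here are the places on the long arm of human chromosome 17 (17q) where the transcription factor HIF-1α was called by chromatin immunoprecipitation and sequencing (ChIP-seq) in the neuroblastoma cell line SK-N-BE(2). A site belongs to 17q when the summit of its interval lies beyond 25.8 Mb of chromosome 17 in hg19, and chromosome 17 below 22.2 Mb (17p) served as the comparison arm. The rule used position only and no measured value. It gave 650 intervals on 17q among 15076 intervals on 24 chromosomes in the 6 peak lists, and joining intervals that shared at least 1 bp gave 401 regions on 17q among 9420. On 17p there were 191 intervals in 113 regions. The nearest interval inside the limit was chr17:25904261-25904428 in hypoxia 3, with a fold of 5.05 over local background and 11 reads at the summit. The nearest outside was chr17:25680635-25680840 in the same library, with a fold of 8.47 and 17 reads.

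Cultures spent 48 hours either in normoxia, at 21% oxygen (3 libraries), or in hypoxia, at 1% oxygen (3 libraries), and HIF-1α was precipitated in all 6. There were 3 further input libraries (sheared chromatin without precipitation), all labelled 21% oxygen and none 1% oxygen. All libraries came from the same cell line, without a genetic change named in the labels, and the labels do not say whether same-condition libraries were separate cultures, so a p-value here reflects library-to-library spread, possibly of technical origin.

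HIF-1 is a dimer of an oxygen-regulated α subunit and a constitutive β subunit. In oxygen the α subunit is hydroxylated and degraded; in low oxygen it accumulates, enters the nucleus and binds hypoxia response elements beside genes of glycolysis, pH control, blood vessel growth and other responses. Extra copies of the distal part of 17q are among the most common chromosome changes in neuroblastoma and are known for an association with poor outcome. Genes on the long arm include SLC16A3, a lactate exporter, P4HB, a subunit of the collagen prolyl hydroxylase, and ALDOC, a glycolytic aldolase, all known to respond to hypoxia, and BIRC5, an inhibitor of apoptosis, and PPM1D, a phosphatase that restrains p53, often discussed with 17q gain. No hg19 gene annotation or sequence was used, so sites are given by position alone and none is assigned to a gene.

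The depth of a library, taken as its genome-wide expected reads per kb, lay between 5.31 and 6.62 in the hypoxia lists and between 6.02 and 6.69 in the normoxia lists, so the groups overlapped in depth. The lists stood apart in another respect: hypoxia 2 and 3 were called with a fragment extension of 155 and 167 bp, while hypoxia 1 and all 3 normoxia lists were called with 46 to 48 bp. Hypoxia 1 was also the shortest hypoxia list, with 1408 intervals against 5833 and 7619. Results are therefore given by library, and for the comparison of conditions also for the 4 lists with a short extension alone.

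On 17q, as in the lists as a whole, many more HIF-1α intervals were listed in hypoxia than in normoxia. The arm held 67 intervals in hypoxia 1, 233 in hypoxia 2 and 341 in hypoxia 3. Normoxia 1 listed 3, normoxia 2 listed 2 and normoxia 3 listed 4. Every hypoxia library was above every normoxia library. The mean was 213.7 ± 138 intervals (SD, n = 3) in hypoxia and 3 ± 1 (SD, n = 3) in normoxia. The ratio of geometric means, on the scale of count plus 1, was 44.9. An exact two-sided permutation test gave p = 0.1, the smallest p that 3 libraries against 3 allow. The ratio was 72.3 without hypoxia 1, and 17.4 for hypoxia 1 against the 3 normoxia libraries, all with a short extension; with 1 hypoxia library that last value has no test.

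On 17p the same lists held 24, 61 and 105 intervals in hypoxia 1, 2 and 3. Normoxia 1 and 2 listed 0 there and normoxia 3 listed 1. Both arms thus went from at most 4 intervals in a normoxia list to at least 24 in a hypoxia list. The whole lists went the same way, from 75, 32 and 109 intervals in normoxia 1, 2 and 3 to 1408, 5833 and 7619 in hypoxia. The 17q share was 4%, 6.25% and 3.67% of the normoxia lists, from few intervals, and 4.76%, 3.99% and 4.48% of the hypoxia lists. The excess in hypoxia was therefore not particular to 17q.

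Each hypoxia list gave 17q a larger share than its length. Taking the end of the last called interval as the end of each chromosome, the arm spans 55.3 Mb, 1.79% of the summed lengths, and held 4.76% of the intervals of hypoxia 1 (95% exact Clopper-Pearson interval 3.71 to 6.0), 3.99% of hypoxia 2 (3.51 to 4.53) and 4.48% of hypoxia 3 (4.02 to 4.96). The mean share was 4.41% ± 0.386 (SD, n = 3), so it varied little although the lists differed widely in length. On 17p, 0.719% of the summed lengths, the shares were 1.70%, 1.05% and 1.38%. These intervals cover counting error only. Among the 100 intervals with the highest fold of a list, 6 were on 17q in hypoxia 1, 4 in hypoxia 2 and 2 in hypoxia 3, and 1, 0 and 0 were on 17p.

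Per Mb, 17q carried more intervals than 17p in each hypoxia library, and both arms carried more than the other chromosomes pooled. The density on 17q was 1.21 intervals per Mb in hypoxia 1, 4.22 in hypoxia 2 and 6.17 in hypoxia 3. On 17p it was 1.08, 2.75 and 4.73, and on the other chromosomes 0.436, 1.84 and 2.38. The pooled value hides differences between chromosomes: chromosome 19 had 1.22, 4.76 and 6.25 intervals per Mb, slightly above 17q in each library, and 17q came next of the 25 chromosomes and arms compared. The order 17q, 17p, other chromosomes pooled was the same in 3 of 3 libraries, while the levels of the arms overlapped across libraries. The density ratio of 17q to 17p was 1.12, 1.53 and 1.3, with a geometric mean of 1.31 (exact two-sided sign-flip permutation test over 3 libraries, p = 0.25, the smallest it can give). Against the other chromosomes the ratio was 2.78, 2.29 and 2.59, with a geometric mean of 2.55 (the same exact test, p = 0.25). When only 1 Mb bins with at least 1 hypoxia interval were counted, the ratio of 17q to 17p came to 1.07 (exact test, p = 0.75), and its direction was no longer the same in every library.

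**Figure D1:**
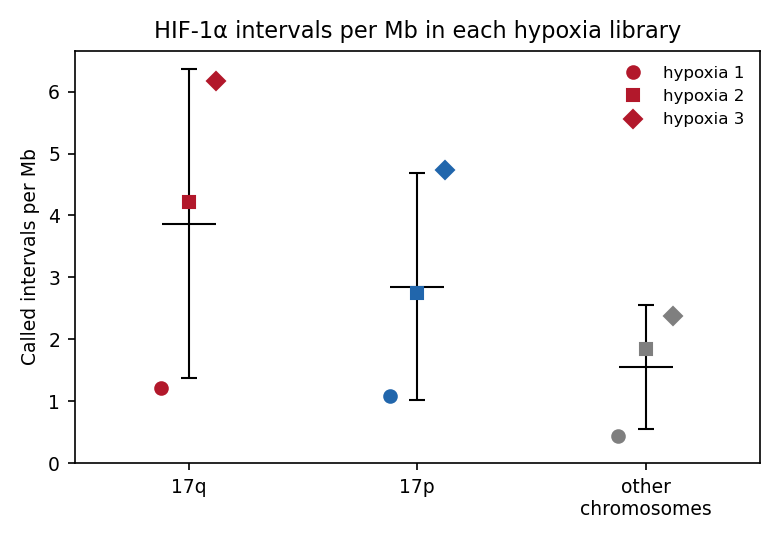
Called HIF-1α intervals per Mb (y axis) on 17q, 17p and the other chromosomes pooled (x axis), one symbol per hypoxia library, with the mean as a line and the SD of 3 libraries as the bar. Of these 3 parts 17q is highest in each library, from 1.21 in hypoxia 1 to 6.17 in hypoxia 3, and the spread between libraries is larger than the step between the arms.

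Per gene, too, 17q carried more sites than 17p. In the RefSeq gene list of GRCh38.p14, used only for the order of genes, 825 protein-coding genes lie on the long-arm side, from WSB1 on, and 344 on the short-arm side, up to KCNJ18. There were 21.1 regions called in at least 2 hypoxia libraries per 100 protein-coding genes on 17q and 15.4 on 17p. Counting every hypoxia region, the values were 48.6 and 32.8 per 100 genes. These ratios are a description and were not tested. Genes were counted on chromosome 17 alone, so these values do not show whether 17q stands above other chromosomes per gene.

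Sites on 17q were found again in a further hypoxia library about as often as sites elsewhere. Of the 401 hypoxia regions on 17q, 174 recurred, that is, at least 2 hypoxia lists had them (43.4%, 95% exact interval 38.5 to 48.4), against 44% of all hypoxia regions. The number found in all 3 hypoxia lists was 58 (14.5%, 11.2 to 18.3), against 11.5% of all hypoxia regions, a value inside that interval. On 17p, at least 2 libraries shared 53 of 113 regions (46.9%, 37.5 to 56.5), and all 3 shared 20 (17.7%, 11.2 to 26). Shares of recurrent sites on both arms were thus near the background. Per Mb there were 3.15 recurrent regions on 17q, 2.39 on 17p and 1.3 on the other chromosomes pooled, with 3.55 on chromosome 19, the highest. For regions called in all 3 libraries the densities were 1.05, 0.901 and 0.334 per Mb.

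Which libraries shared a site followed list length. Hypoxia 2 and 3, the longer lists, also had the longer extension, so list length and extension cannot be told apart here. Of the 227 regions on 17q called in 1 library, 2 were from hypoxia 1, 58 from hypoxia 2 and 167 from hypoxia 3. Of the 116 regions called in exactly 2 libraries, 115 were shared by hypoxia 2 and 3, 1 by hypoxia 1 and 3, and 0 by hypoxia 1 and 2. The split over all chromosomes was alike. Of 5259 regions called in 1 library there, 110, 1686 and 3463 were from hypoxia 1, 2 and 3. Hypoxia 2 and 3 alone shared 2989, hypoxia 1 and 3 shared 49, and hypoxia 1 and 2 shared 13. Nearly every 17q site of hypoxia 1 was therefore also in both longer lists. Without hypoxia 2 the count of recurrent 17q regions was 59, and without hypoxia 3 it was 57, while without hypoxia 1 it was 173.

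Recurrent sites of 17q were wider and stronger. The median region measured 203 bp when called in 1 hypoxia library, 352.5 bp in 2 and 441.5 bp in 3. In hypoxia 2 the median fold was 5.25, 6.84 and 12.4 for regions called in 1, 2 and 3 libraries, with 13, 17 and 32.5 reads at the summit. In hypoxia 3 it was 5.05, 6.45 and 13.3, with 12, 19 and 41 reads. Both lists thus showed the same order. A region joined from several intervals can only grow, so its length is in part set by the joining. A strong summit is also more readily called in a further list, so the order of folds and reads is in part set by this sorting.

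Within the 58 regions called in all 3 hypoxia libraries, the summits lay close together. The range of the 3 summits had a median of 33.5 bp (quartiles 23.5 and 69.5 bp), and in 50 of 58 regions (86.2%) they lay within 100 bp. Between hypoxia 2 and 3, the lists with a similar extension, the median distance was 13 bp.

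The 10 strongest recurrent sites of 17q, ranked by the mean percentile of their fold within the 3 hypoxia lists, all lay beyond 30 Mb. First was chr17:80415801-80416704, near the end of the arm. Its fold was 17.9, 61.9 and 91.2 in hypoxia 1, 2 and 3, from 47, 210 and 227 reads at the summit, and the 3 summits fell at 80416109, 80416106 and 80416112. It was called in all 3 normoxia libraries too, with folds of 6.66, 15.6 and 31.9, so fold in normoxia 3 exceeded that in hypoxia 1 and the groups overlapped.

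The site at chr17:55682104-55683197 was second, with folds of 18.4, 43.6 and 55.3 from 30, 113 and 165 reads, and no normoxia call. It is the strongest member of the largest cluster described below. The third, chr17:36442365-36443150, had folds of 19.2, 64.6 and 27.5, from 33, 152 and 150 reads. Its reads in hypoxia 2 and 3 were nearly equal, and the lower fold in hypoxia 3 came with a control signal around the site of 5.07 (1 is the average of the list), against 1.49 in hypoxia 2. The fourth, chr17:45579407-45580186, had the same shape: folds of 15.7, 48.4 and 27.0 from 28, 125 and 127 reads, with a control signal of 1.74 in hypoxia 2 and 4.22 in hypoxia 3. For both sites the rank by fold in hypoxia 3 is therefore lower than the reads alone would give.

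The other sites of the 10 were chr17:63154744-63155206, chr17:79526174-79526631, chr17:71587754-71588444, chr17:36898816-36899363, chr17:70348103-70348589 and chr17:80606102-80606515. Their folds ran from 10.2 to 15.1 in hypoxia 1, from 17.3 to 31.1 in hypoxia 2 and from 24.8 to 41.7 in hypoxia 3. In each of the 10 sites hypoxia 1 had the lowest fold of the 3 hypoxia libraries. Fold adds 1 to both reads and background, and the added 1 weighs more where the background is small. The genome-wide background was 0.318 reads in hypoxia 1, against 0.92 in hypoxia 2 and 0.886 in hypoxia 3, which had a longer extension. Folds of hypoxia 1 are thus not on the same scale as those of hypoxia 2 and 3, and whether this order reflects binding strength was not tested. The most proximal stretch, 25.8 to 30 Mb, had no site among the 10. Its highest-ranked region, chr17:26903757-26904174, had folds of 12.1, 17 and 21.6 from 15, 57 and 61 reads.

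Only 3 regions of 17q were called in normoxia, and at least 2 normoxia libraries and all 3 hypoxia libraries had each of them. Over all chromosomes, 29 of 138 normoxia regions (21%) were called in at least 2 normoxia libraries, and 3 regions are too few to set against that share. Of the 174 recurrent regions on 17q these are 1.72% (95% exact interval 0.357 to 4.96), against 2.25% of all recurrent hypoxia regions, so a normoxia call was about as rare on 17q as elsewhere. The site at chr17:45266112-45267044 was called in all 6 libraries, with normoxia folds of 9.69, 8.68 and 13.8 (replicates 1 to 3). Its hypoxia folds were 19.2, 16.4 and 11.6. Its groups overlapped, since hypoxia 3 was below normoxia 3. The site at chr17:63154744-63155206 had folds of 6.70 in normoxia 1 and 7.97 in normoxia 3, and no call in normoxia 2. Its hypoxia folds were 12.6, 30.1 and 41.7. There every hypoxia value was above both normoxia values, but only hypoxia 1 had a matching extension. Folds called with unlike extensions are not on the same scale.

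Reads at these 3 sites can be compared only where the extension matched, between hypoxia 1 and the normoxia libraries. Corrected for depth, the read ratio of hypoxia 1 to normoxia 1, 2 and 3 was 2.09, 2.20 and 1.05 at chr17:45266112-45267044. It was 2.02 and 1.22 against normoxia 1 and 3 at chr17:63154744-63155206. At chr17:80415801-80416704 it was 2.79, 1.64 and 0.753, from 47 reads in hypoxia 1 and 17, 26 and 59 in normoxia. The ratio was above 1 in 7 of 8 comparisons, with a median of 1.83. All 8 use the same hypoxia library, and they have no test.

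**Figure D2:**
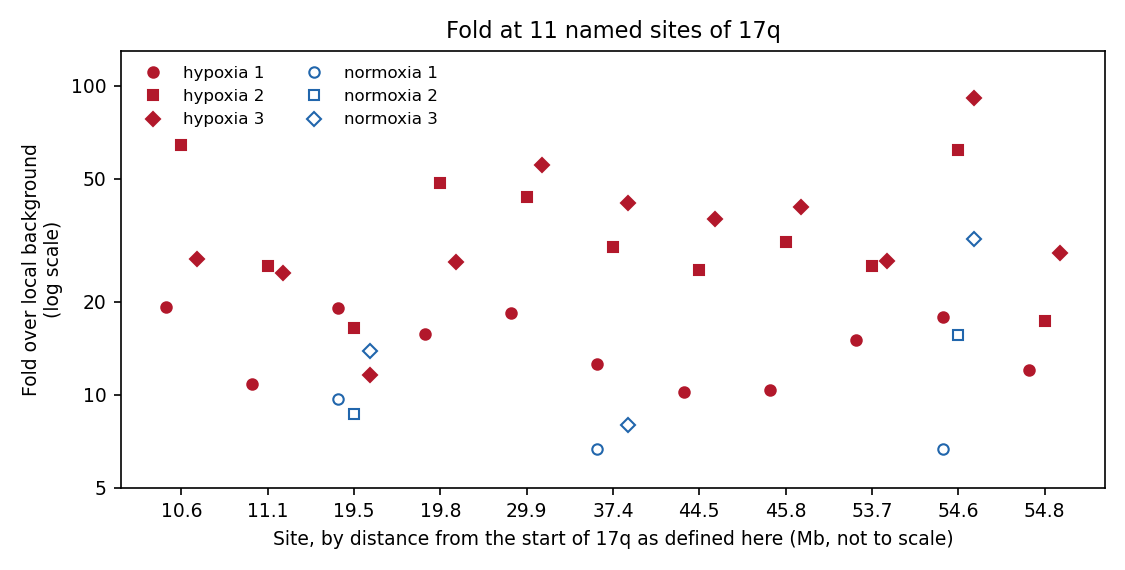
Fold over local background (y axis, log scale) in each library at the 10 highest-ranked recurrent sites of 17q and the other site called in at least 2 normoxia libraries, placed in order along the arm and labelled by distance from its start (x axis). Filled symbols are hypoxia and open symbols normoxia. There are 8 sites without a normoxia value, and at 2 of the other 3 sites, 19.5 and 54.6 Mb from the start, normoxia and hypoxia values overlap. Hypoxia 2 and 3 were called with a longer extension than the other lists, so their folds are not on the same scale.

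How many reads a normoxia call would have needed was worked out for the sites of hypoxia 1 only. Of the 67 intervals of hypoxia 1 on 17q, 64, 65 and 64 were not called in normoxia 1, 2 and 3. Taking the lowest deposited −log10 p of each normoxia list as its threshold, a call needed a median of 7, 8 and 7 reads. The reads seen in hypoxia 1, scaled to the depth of each normoxia library, reached that number at 87.5%, 60% and 75% of them, and at 0.5 of that strength at 21.9%, 10.8% and 15.6%. At 0.5 of the hypoxia 1 strength, most of these 64 or 65 intervals would thus have missed that threshold.

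Sites were spread unevenly along 17q. Among 57 bins of 1 Mb, the median held 5 hypoxia regions, 18 bins held at least 10 and 5 held none. The densest bin, 38 to 39 Mb, held 23 regions, 10 of them called in at least 2 libraries and 3 in all 3. Bins at 74 to 75 Mb, 55 to 56 Mb, 71 to 72 Mb and 79 to 80 Mb followed with 21, 20, 19 and 19 regions, of which 9, 9, 6 and 7 were called in at least 2 libraries. The top 5 bins held 102 regions, 25.4% of the arm's 401, and the top 10 held 173 (43.1%). On 17p the median bin held 3 regions, the highest 18, and 6 of 23 bins were empty.

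In 5 Mb bins the distal arm was the most crowded. There were 67 regions at 70 to 75 Mb and 70 at 75 to 80 Mb, 13.4 and 14 per Mb. From 35 to 50 Mb the bins held 48, 42 and 52. Sparse stretches separated these blocks: 5 regions at 50 to 55 Mb and 7 at 65 to 70 Mb. The widest stretch without a hypoxia region ran 3.88 Mb, from chr17:65989477 to chr17:69866717, against 2.63 Mb on 17p. The share of regions called in at least 2 libraries lay between 37.3% and 58.3% in every 5 Mb bin of the arm except the most proximal, 25.8 to 30 Mb, with 7 of 27 (25.9%).

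**Figure D3:**
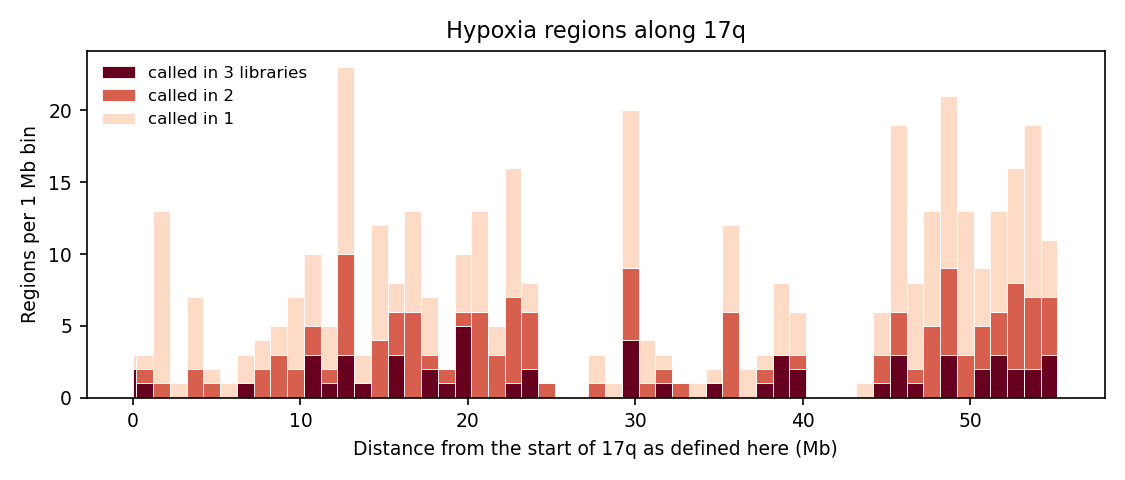
Hypoxia regions per 1 Mb bin (y axis) along 17q by distance from its start at 25.8 Mb (x axis), stacked by the number of hypoxia libraries that called them; the first and last bars cover parts of a bin. Crowded stretches alternate with nearly empty ones, and the highest bar holds 23 regions.

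Neighbouring sites stood a median of 49.4 kb apart on 17q and 52.5 kb on 17p, and 50.2% of the 400 gaps on 17q measured at most 50 kb, against 49.1% on 17p. The arms differed little by these measures, with no test made. Joining neighbours at most 50 kb apart gave 200 clusters, 116 of them single regions. A group of 16 clusters with at least 5 regions held 116 regions (28.9%).

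The largest cluster, chr17:55580243-55700683, packed 14 regions into 120.4 kb. Of these, 6 recurred, 3 of them in every hypoxia library, and its highest folds were 18.4, 43.6 and 55.3. The next, chr17:78699410-78866967, held 12 regions in 167.6 kb, 7 of them in at least 2 libraries and 1 in all 3. The cluster at chr17:46018914-46126555 had 10 regions, 6 of them called in at least 2 libraries, but none in hypoxia 1, and its highest fold was 9.37. At chr17:38459852-38529220 there were 9 regions in 69.4 kb, 5 in at least 2 libraries, with folds up to 34.8 in hypoxia 3. The cluster at chr17:71306848-71470810 also held 9 regions, but just 1 was called in at least 2 libraries. Clusters of equal size thus differed in how often their members came back.

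The control reads around a site bear on how much DNA of that place was in the input. The peak caller sets each summit against the largest of several background estimates: control reads in a window of the extension size, in 1 kb or in 10 kb, or the genome-wide average. That background was solved from the deposited fold and −log10 p and divided by the genome-wide value of its list, so 1 means the average. Whether DNA copies set these values was not tested. Same-numbered lists have the same control depth, so the background of a normoxia list was not taken as an independent measure. At chr17:45266112-45267044 it was 1.78 in both hypoxia 1 and normoxia 1, 1.76 in both hypoxia 2 and normoxia 2, and 4.22 in hypoxia 3 against 3.24 in normoxia 3. At chr17:80415801-80416704 the pairs were 5.30 and 5.54, 2.62 and 2.57, and 1.69 and 3.00, hypoxia first; the extension and the summit differ within some pairs.

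Background was higher on 17q than on 17p in each hypoxia list. Its median was 2.04, 1.74 and 1.69 on 17q in hypoxia 1, 2 and 3 and 1.40, 1.09 and 1.27 on 17p. Over all chromosomes it was 1.66, 1.35 and 1.33, so 17q lay above and 17p below the genome in 3 of 3 lists. The means over libraries were 1.82 ± 0.186 (SD, n = 3) on 17q and 1.25 ± 0.153 (SD, n = 3) on 17p, and the lowest value on 17q was above the highest on 17p. The ratio of 17q to 17p was 1.45, 1.59 and 1.33, with a geometric mean of 1.46 (exact two-sided sign-flip permutation test over 3 libraries, p = 0.25, the smallest possible). Because the values move in steps of whole control reads, medians can tie between chromosomes.

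Other measures of the same background gave the same order of the arms. The lower quartile was 1.57, 1.38 and 1.44 on 17q and 1.15, 1 and 1 on 17p. The share of intervals whose background was no more than the genome-wide value was 4 of 67 on 17q in hypoxia 1 (5.97%, 95% exact interval 1.65 to 14.6), against 13.3% in that whole list. In hypoxia 2 it was 15 of 233 (6.44%, 3.65 to 10.4), against 21.9%, and in hypoxia 3 it was 31 of 341 (9.09%, 6.26 to 12.7), against 31.8%. On 17p the shares were 16.7%, 39.3% (27.1 to 52.7) and 27.6% (19.3 to 37.2). In hypoxia 2 and 3, 17q sites were thus at the genome-wide value much more rarely than the list as a whole, and in hypoxia 1 the interval on 17q holds the background share.

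The 10 kb window is the estimate least moved by a single site. Where it set the background, the median was 125 control reads on 17q in hypoxia 1 (11 intervals), 104 in hypoxia 2 (57) and 102 in hypoxia 3 (50), 1.59, 1.41 and 1.44 times the average. On 17p the medians were 97 (1 interval), 82 (9) and 84 (12), or 1.24, 1.11 and 1.18 times. The ratio of the arms was 1.29, 1.27 and 1.21, with a geometric mean of 1.26 (exact test as above, p = 0.25). These intervals are the ones where the 10 kb window was the highest, so both values lie above what an average 10 kb would hold.

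Among chromosomes with at least 20 intervals in a list, counting 17q and 17p apart, the lower quartile on 17q ranked 2 of 22 in hypoxia 1, after chromosome 1, then 1 of 24 in hypoxia 2, and 2 of 24 in hypoxia 3, after chromosome 8. By the share of intervals at the genome-wide value, it ranked 5 of 22, 1 of 24 and 2 of 24 from the lowest. The short arm ranked 15 of 22, 21 of 24 and 11 of 24. Chromosome 1 was also low by that share in every list, with 5.48%, 12.6% and 17.5%. The controls behind lists 2 and 3 differed on some chromosomes: chromosome 8 had 17.2% of its intervals at the genome-wide value in hypoxia 2 and 6.45% in hypoxia 3, and chromosome 10 had 25.9% and 82.7%.

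**Figure D4:**
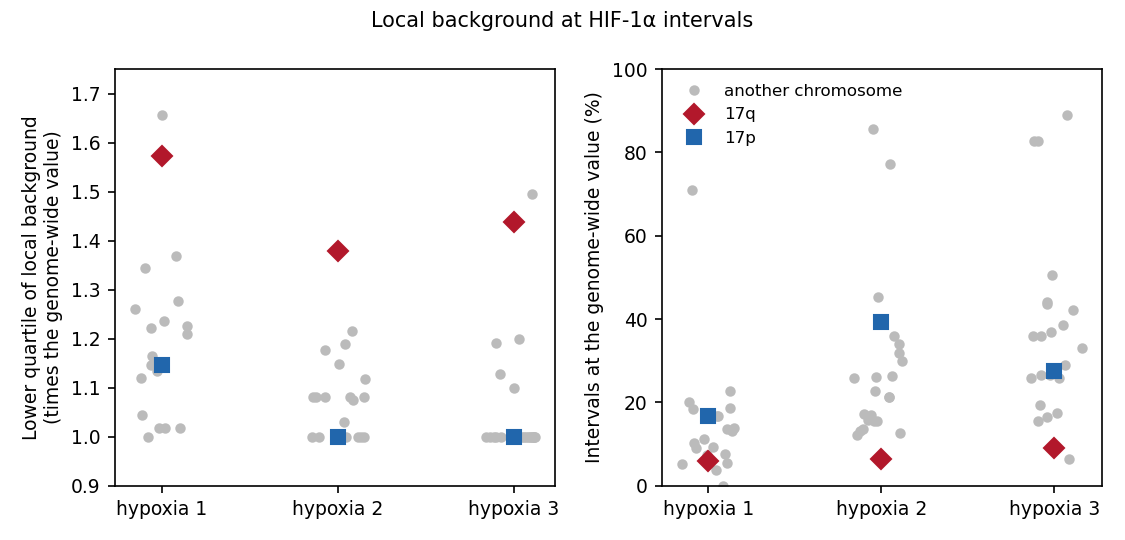
Lower quartile of the local background at called intervals, in units of the genome-wide value (left y axis), and percent of intervals at that value (right y axis), in the 3 hypoxia libraries (x axis). Each grey point is a chromosome with at least 20 intervals; 17q is at or near the top on the left (1.57, 1.38 and 1.44) and near the bottom on the right (5.97, 6.44 and 9.09%), away from 17p.

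Background did not stay level along 17q. In the most proximal bin, 25.8 to 30 Mb, its median was 1.15 in hypoxia 2 and 1.41 in hypoxia 3, near the values of 1.09 and 1.27 on 17p. From 30 Mb on, every 5 Mb bin with at least 5 intervals had a median between 1.63 and 2.53 in these 2 lists. At 30 to 35 Mb in hypoxia 3, however, the lower quartile was 1. There 4 of 13 intervals were at the genome-wide value, against 5 of 23 from 25.8 to 30 Mb. The median was highest from 55 to 65 Mb, with 2.03 in hypoxia 2 and 2.53 in hypoxia 3 in both bins. In hypoxia 1, whose bins held at most 11 intervals, the medians ran from 1.46 at 40 to 45 Mb to 2.65 at 35 to 40, 45 to 50 and 55 to 60 Mb. The values 2.65 in hypoxia 1 and 2.53 in hypoxia 3 recur at many sites. They are steps of whole control reads, few of them, in the extension window. The bins with these medians are therefore not points of a graded profile. The 10 kb window in hypoxia 2 gave 1.73 at 55 to 60 Mb and 1.64 at 60 to 65 Mb, the highest of its bins, and 1.3 at 75 to 80 Mb, the lowest. In hypoxia 3 that window was highest elsewhere, with 1.66 at 45 to 50 Mb and 1.54 at 35 to 40 Mb against 1.49 at 55 to 60 Mb, and too few intervals for a value at 60 to 65 Mb.

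Sites at the genome-wide value were gathered in a few places. Limits chosen after their values were seen give 10 of 38 intervals at that value from 25.8 to 30 Mb (26.3%) and 8 of 17 from 43 to 45 Mb (47.1%), the 3 lists pooled. Between 30 and 43 Mb it was 11 of 152 (7.24%), from 45 to 75 Mb it was 8 of 303 (2.64%), and beyond 75 Mb 13 of 131 (9.92%). These limits hide unevenness inside them. From 30 to 31 Mb 2 of 3 intervals were at that value, and from 31 to 32 Mb 1 of 1. From 42 to 43 Mb it was 4 of 19. From 43 to 45 Mb each list had some: 2 of 3 intervals in hypoxia 1, 3 of 6 in hypoxia 2 and 3 of 8 in hypoxia 3. Lists share sites, so these intervals are not independent, and the steps were not tested as limits of copy number.

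**Figure D5:**
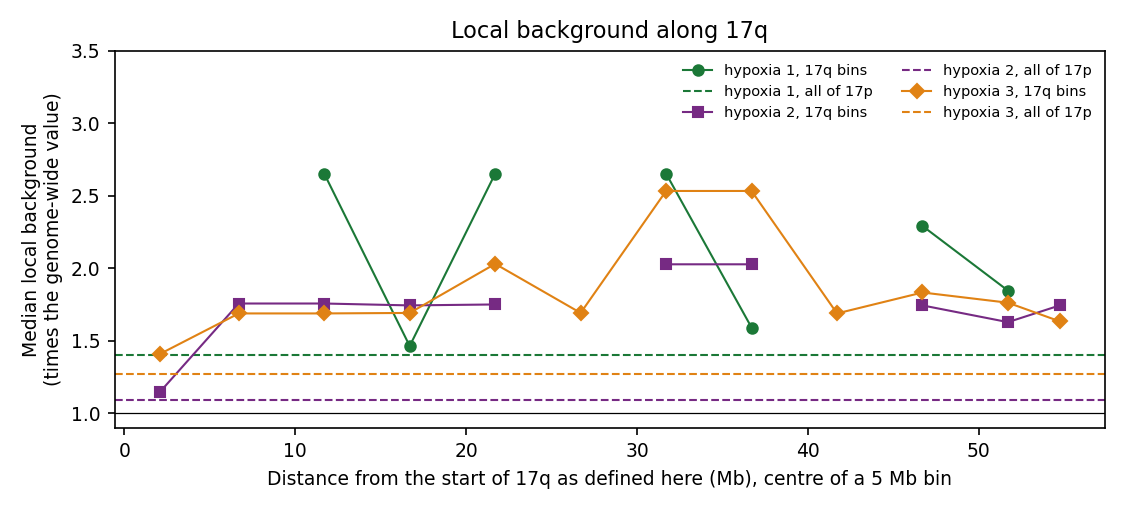
Median local background in units of the genome-wide value (y axis) in 5 Mb bins with at least 5 intervals along 17q by distance from its start (x axis), one symbol per hypoxia library; dashed lines are the medians of 17p in the same libraries and the thin line is 1. The first bin lies near the 17p lines (1.15 in hypoxia 2, 1.41 in hypoxia 3), and the values of hypoxia 2 and 3 are highest in the 2 bins from 55 to 65 Mb. Background moves in steps of whole control reads, often few in a window.

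The higher background on 17q went with slightly more reads at the summit and with no steady difference in fold. Only called summits were counted, and each was called against this same background. A higher background thus asks for more reads by construction, so the difference in reads is no separate result. The median summit had 9, 17 and 16 reads on 17q in hypoxia 1, 2 and 3 and 8, 16 and 15 on 17p, a ratio with a geometric mean of 1.08 (exact sign-flip permutation test, p = 0.25, the smallest possible), higher on 17q in 3 of 3 libraries. The median fold was 6.51, 6.76 and 5.93 on 17q and 5.87, 7.36 and 6.80 on 17p, a geometric mean ratio of 0.961 (exact test, p = 0.75), higher on 17q in 1 of 3 libraries. The part of the background in the number of sites per Mb was not tested.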

How the data were processed

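Each of the 6 HIF-1α ChIP-seq libraries has its own peak list. BWA 0.7.17, MACS2 and hg19 are named in the submitters' processing notes, without MACS2's version or settings. The deposited narrowPeak columns hold the authors' score, their fold (a ratio of reads to local background at the summit), and −log10 p and −log10 q values; a fold is the peak's own value and served to describe, rank or filter peaks within a list and, with p, to recover reads. Total read numbers are unknown.

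Intervals with several summits were counted once, with the summit of smallest p, and placed by the first summit; positions are 1-based. Reads and local background were solved from fold, (reads + 1) / (background + 1), and the Poisson −log10 p, within 0.001; all lines gave whole reads (100%). Where several solutions fitted, the closest was taken. Backgrounds were traced to whole control reads in the extension, 1 kb or 10 kb window (100%). On 500 simulated summits and 261 simulated regions of 17q, all were recovered (100%). The simulated regions stood far apart and the intervals of each always overlapped. Their recovery thus checks the code and not the joining of close sites.

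Chromosome lengths were taken from the end of the last called interval. Regions are intervals of any list joined by at least 1 bp. Groups and numbers came from the sample titles. Counts were compared on log2(count + 1) by exact permutation, arms within a library by exact sign-flip permutation, and shares were given with 95% Clopper-Pearson intervals (counting error alone). A background of at least 10 times the genome-wide value was called high. Sites named were, by rule, the 10 regions highest by mean fold percentile among those called in all 3 hypoxia lists, regions in at least 2 normoxia lists, the 5 densest 1 Mb bins, the emptiest stretch, the 5 largest clusters and the top region of each 10 Mb. Members, lists and tests were chosen with earlier results of these data known. Gene assignment, motifs and sequences, planned only with an hg19 reference, were not run. Python 3.11.15, numpy 2.4.6, pandas 2.3.3, scipy 1.17.1 and matplotlib 3.10.9 were used.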

Additional observations from a re-analysis of the deposited data

Results flagged for a closer look

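Between the arms of chromosome 17, from 22.2 to 25.8 Mb, outside both definitions, hypoxia 1 listed 6 intervals, hypoxia 2 listed 1, hypoxia 3 listed 2, normoxia 1 listed 3, and normoxia 2 and 3 listed 0. They belong to neither arm in the comparisons above, but they are counted in the values over all chromosomes. Of the 6 in hypoxia 1, 5 had a local background of at least 10 times the genome-wide value, and the median of the 6 was 46.4 times with a fold of 3.01. All 3 in normoxia 1 were of that kind, with a median of 27.7 times. The calls in hypoxia 2 and 3 were not. The 1 in hypoxia 2 had a background of 3.49 times and a fold of 12.6. The 2 in hypoxia 3 had medians of 1.20 times and a fold of 20.7. On 17q, 0, 1 and 2 intervals of hypoxia 1, 2 and 3 had a background of at least 10 times.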

How the results depend on the processing

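The excess of 17q intervals in hypoxia kept its direction in 13 alternatives (17.4 to 72.3). The alternatives gave 34.1 for −log10 q of at least 5, 26.7 for a fold of at least 6, 32.1 for every summit line and 51.5 with 0.5 added to counts. Leaving out 1 library gave 32.2 to 72.3. The replicate numbers pair lists through a shared control depth, and the labels name no other pairing; with a replicate block the ratio was again 44.9 (exact sign-flip permutation test, p = 0.25, the smallest possible). The density ratio of 17q to 17p ran from 1.07 to 1.51 in 9 alternatives, the background ratio from 1.26 to 1.55 in 10, including the lower quartile (1.40), which was added after seeing the data, as were the lists with a short extension. The share of the lists ran from 4.24% to 4.69% in 7. The count of recurrent 17q regions, 174, fell to 100 for a fold of at least 6 and to 58 when all 3 hypoxia libraries were required; leaving out 1 hypoxia library gave 57 to 173. It was 152 with a reciprocal overlap of 50%, 166 with summits within 150 bp and 133 with −log10 q of at least 5. The counts at a higher fold or q and without a library rest on fewer intervals, and the others on a stricter match, by construction. With 3 hypoxia libraries no comparison of arms can give p under 0.25, and the background rests on whole control reads, often few in a window, so it moves in coarse steps.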
